A study of Mus musculus with 10 samples.

Results

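The genes described here encode the proteasome, its activators and the chaperones that assemble it. They are the 48 rows of the count table, of 56832 rows in all, whose symbol is Psm, followed by a letter from a to g and a number. By role they comprised 8 alpha subunits of the 20S core (Psma), 7 constitutive beta subunits (Psmb1 to Psmb7), 4 inducible or tissue-restricted beta subunits (Psmb8 to Psmb11), 6 ATPase genes (Psmc) and 14 non-ATPase genes (Psmd) of the 19S regulatory particle, 5 activator and inhibitor genes (Psme and Psmf1), and 4 assembly chaperones (Psmg). The Psmd genes include Psmd5, Psmd9 and Psmd10, which encode assembly chaperones of the 19S base rather than lasting subunits. A total of 46 passed the filter on low counts. Psmb11, the beta subunit of thymic epithelium, had 0 counts in all 10 libraries, and Psma8, the alpha subunit of male germ cells, had 0 to 6 counts per library.

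The proteasome degrades proteins tagged with ubiquitin. Its barrel-shaped 20S core is built from rings of alpha and beta subunits, and only the beta subunits encoded by Psmb5, Psmb6 and Psmb7 cut peptide bonds in the constitutive form. Interferon-gamma induces Psmb8, Psmb9 and Psmb10, whose products take the places of Psmb5, Psmb6 and Psmb7, respectively, in newly assembled immunoproteasomes, and it also induces the 11S activator genes Psme1 and Psme2. The 19S particle binds, unfolds and feeds the ubiquitin-tagged substrate into the core. In heart muscle the proteasome clears damaged sarcomere and other proteins, and its genes are known to be driven together by the transcription factor encoded by Nfe2l1 when degradation falls short.

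RNA was sequenced from cardiomyocytes of 5 Sprr1a-GFP mice, whose titles carry the word Hetz, after myocardial infarction (MI) at 12 weeks of age. Hearts were digested by Langendorff perfusion 5 days after MI and sorted by flow cytometry into GFP+ cells, described as border zone cardiomyocytes, and GFP− cells, described as remote zone cardiomyocytes. Each mouse (17C1, 17C2, 21A4, 21A5 and 21A7) gave 1 library of each kind, so the comparison was made within mice. Both groups carried the reporter and the infarct. No uninjured heart was analysed here. What drives the reporter beyond its name was not given in the sources used here. The titles of the GFP+ libraries name both DAPI-negative and DAPI-positive cells, and those of the GFP− libraries name DAPI-negative cells alone, so GFP status and the DAPI gate cannot be told apart. Zone and cell state cannot be told apart either, because GFP status defined the zone. In these bulk samples, fewer cells of a type and less RNA per cell cannot be told apart.

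The libraries held 12244373 to 38879965 counts, of which 9.20% to 91.2% fell on mitochondrially encoded genes, which left 3417972 to 16918067 counts elsewhere. The lowest mitochondrial share was in the GFP− library of mouse 21A7 and the highest in its GFP+ library. Sprr1a, the reporter's gene, had a mean of 3.44 CPM (read counts scaled to a common library size) in GFP− and 234.5 CPM in GFP+ libraries. Summed over 7 cardiomyocyte markers, levels were 3294 to 35590 CPM in GFP− and 8852 to 31190 CPM in GFP+ libraries. Fibroblast markers (7 genes) summed to 130 and 283 CPM in the GFP− libraries of the 17C mice but to 6504, 10770 and 12060 CPM in those of 21A4, 21A5 and 21A7. In 21A7 GFP− cells, fibroblast markers therefore exceeded the cardiomyocyte markers. Throughout, CPM were scaled by TMM, a method that sets the bulk of genes equal between libraries, and log2 fold changes compare GFP+ with GFP− cells.

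Constitutive core subunit transcripts were higher in GFP+ cells in most mice, but no single proteasome gene passed the test over all genes. In edgeR's paired quasi-likelihood test, 0 of 46 members had an adjusted p below 0.05, against 104 of 12115 genes tested (0.858%; 0.685% higher and 0.173% lower). At an unadjusted p below 0.05, 14 members were higher in GFP+ cells and 0 were lower, while 7.74% of all tested genes were higher and 7.59% lower by that rule. The log2 fold change was above 0 for 41 of 46 members and for 47.3% of all tested genes. A total of 17 members were higher in GFP+ cells in 5 of 5 mice (9.14% of all tested genes), and 0 were lower in 5 of 5 (8.02%). The median log2 fold change was 0.39 over the 46 members and -0.04 over all tested genes. Mesothelial and epicardial markers (6 genes) moved the same way as the core. They summed to 0.718, 12.6, 30.6, 21.8 and 148 CPM in the GFP− libraries of 17C1, 17C2, 21A4, 21A5 and 21A7, and to 80.4, 116, 87.9, 61.2 and 274 CPM in their GFP+ libraries. Their sum was thus higher in GFP+ cells in 5 of 5 mice, with a median log2 fold change of 2.34 and 0 of 6 called over all mice (5 higher at an unadjusted p below 0.05; within series, 6 called higher for 17C and 5 for 21A), and their part in the core values was not tested.

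The call depended on the test. DESeq2 with the same pairing called 6 members higher (Psmb1, Psmb4, Psmb5, Psmc4, Psmd8 and Psmd13) and 0 lower, with 7.39% of all tested genes called, 3.75% higher and 3.64% lower. The limma voom fit called 3 members higher (Psmb5, Psmd8 and Psmd13) and 0 lower, with 3.66% of all tested genes called, 2.04% higher and 1.63% lower. Without the pairing by mouse, edgeR called 0 members (4 at an unadjusted p below 0.05), and 0.0825% of all tested genes. The genes named in this paragraph and Psmd14 were picked out after their values were seen, except where the naming rule also gave them.

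**Figure D1:**
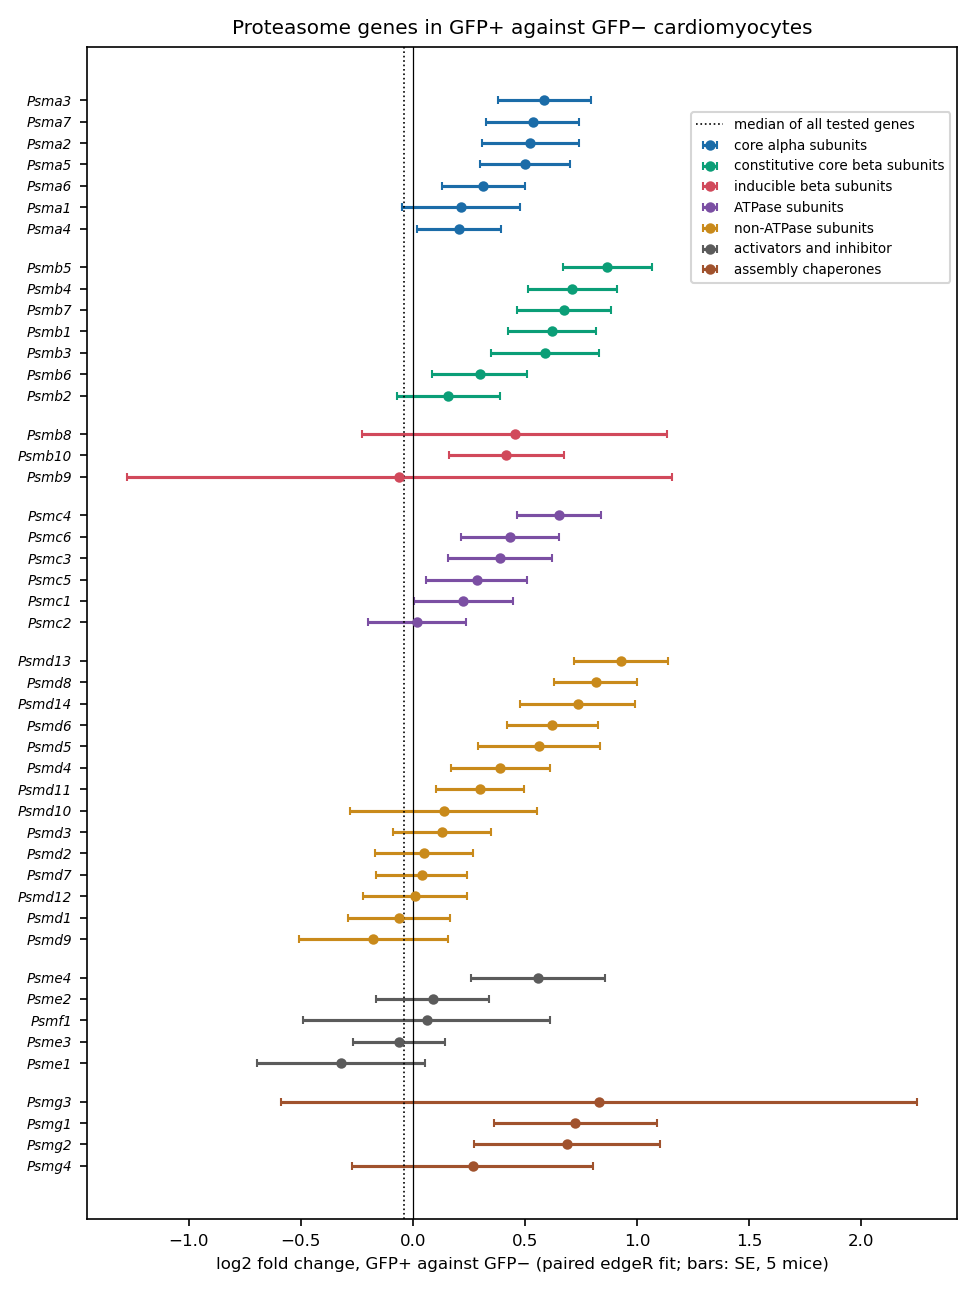
Log2 fold change of the 46 tested proteasome genes in GFP+ against GFP− cells (x axis) by class, from the paired edgeR fit over 5 mice, where bars are standard errors and the dotted line is the median of all tested genes. All 14 constitutive core genes (alpha and beta) lie above 0, and the inducible genes Psmb8 and Psmb9 have wide errors.

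Direction depended on how libraries were scaled, and order relative to other genes did so less. With library size alone, the median log2 fold change of all genes was -1.15, 0 of 46 members were above 0 and 44 of 46 lay above that median. With libraries scaled to sarcomere genes, the medians were -0.38 for all genes and 0.05 for the members, with 26 members above 0 and 42 above the median of all genes. With mitochondrial genes removed and library size alone, an alternative added after seeing the data, the medians were -0.39 and 0.05, with 24 members above 0 and 41 above the median of all genes. The members' share of non-mitochondrial counts was 0.270% to 0.311%, and it was higher in the GFP+ library in 3 of 5 mice. The statements on levels here are therefore relative to the bulk of genes. Among all tested genes, the TMM fit called 83 higher and 21 lower, library size alone 5 higher and 28 lower, and library size without mitochondrial genes 43 higher and 100 lower.

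The constitutive beta subunits had the larger class median among the core rings. Their median log2 fold change was 0.62, with 7 of 7 above 0, 5 at an unadjusted p below 0.05 and 5 higher in 5 of 5 mice. Within mice the class median ranged from 0.46 in 17C2 to 0.76 in 21A5, so it was above 0 in each of them. Psmb5, the chymotrypsin-like catalytic subunit, was measured at 36.2, 30.9, 13.0, 12.0 and 9.20 CPM in the GFP− libraries of 17C1, 17C2, 21A4, 21A5 and 21A7. Its GFP+ libraries, in the same order used from here on, held 63.3, 57.3, 23.4, 28.1 and 13.6 CPM. Each mouse was higher in GFP+ cells, although the groups overlapped because the 17C mice were higher in both. The log2 fold change of Psmb5 was 0.87 ± 0.20 (SE, n = 5 mice; edgeR adjusted p = 0.0966).

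The other catalytic subunits of the constitutive core differed from Psmb5 in size. Psmb7, the trypsin-like subunit, was at 48.9, 37.95, 15.2, 15.6 and 10.2 CPM in GFP− and 57.1, 52.1, 26.3, 31.0 and 19.3 CPM in GFP+ libraries. It too was higher in 5 of 5 mice, by 0.68 ± 0.21 on the log2 scale (edgeR adjusted p = 0.184). Psmb6, the caspase-like subunit, was at 63.9, 59.9, 25.6, 22.4 and 28.1 CPM in GFP− and 62.6, 64.6, 38.1, 37.9 and 29.9 CPM in GFP+ libraries. In 4 of 5 mice the GFP+ library was the higher one, and the log2 fold change was 0.30 ± 0.21 (edgeR adjusted p = 0.559). When a score of non-myocyte markers (fibroblast, mural, endothelial and macrophage genes) was added to the model, the value of Psmb6 relative to the median of all genes was -0.0028, that of Psmb5 0.74 and that of Psmb7 0.41.

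Among the non-catalytic beta subunits, Psmb4 was at 38.04, 41.2, 22.8, 23.5 and 20.1 CPM in GFP− and 82.1, 62.9, 31.9, 39.3 and 30.7 CPM in GFP+ libraries. All 5 mice were higher, by 0.71 ± 0.20 on the log2 scale (edgeR adjusted p = 0.152). Psmb1 had a log2 fold change of 0.62 ± 0.20 and Psmb3 one of 0.59 ± 0.24, both with 5 of 5 mice higher. Psmb2 was lowest in the class by fold change, at 20.8, 18.3, 12.9, 9.60 and 10.1 CPM in GFP− and 17.5, 21.5, 12.1, 17.03 and 10.7 CPM in GFP+ libraries. It had a log2 fold change of 0.16 ± 0.23, with 3 of 5 mice higher.

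The alpha subunits, which form the outer rings and the gate of the core, had a median log2 fold change of 0.50. All 7 tested were above 0, 4 had an unadjusted p below 0.05 and 5 were higher in 5 of 5 mice. Psma3 was highest in the class, at 37.0, 42.4, 21.2, 24.8 and 18.3 CPM in GFP− and 79.9, 54.6, 29.2, 31.2 and 29.4 CPM in GFP+ libraries, and each mouse was higher in GFP+ cells. The log2 fold change of Psma3 came to 0.59 ± 0.21 (edgeR adjusted p = 0.236). Psma4 was lowest in the class at 0.20 ± 0.19, with 33.9, 29.4, 18.0, 16.1 and 20.4 CPM in GFP− and 40.5, 30.8, 24.4, 18.5 and 21.3 CPM in GFP+ libraries. It too was higher in 5 of 5 mice, and the groups overlapped. Alpha and constitutive beta genes together, as the 20S core, summed to 528, 494, 242, 236 and 222 CPM in GFP− and 784, 654, 350, 369 and 288 CPM in GFP+ libraries. Each mouse's sum was higher in GFP+ cells.

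The 19S regulatory particle stood lower than the core on the same scale, and this difference between classes was not tested. Over its 20 genes the median log2 fold change was 0.29, with 18 above 0, 5 at an unadjusted p below 0.05 and 5 higher in 5 of 5 mice. Without the base chaperones Psmd5, Psmd9 and Psmd10, a split made after the values were seen, the median over 17 genes was 0.30, with 16 above 0. In both 17C mice the median over the 20 genes was near 0 (0.05 and 0.05), and in 21A4, 21A5 and 21A7 it was 0.27, 0.57 and 0.24. The fit of the 17C mice alone gave medians of 0.47 for the core and 0.04 for the 19S genes. In the 21A mice alone the medians were closer, 0.50 and 0.47. The ATPase subunits, which form the unfolding ring, had a median of 0.34. Relative to the median of all genes it was 0.37, or 0.01 with the non-myocyte score in the model. Psmc4 was highest among them, at 34.3, 28.0, 22.6, 22.7 and 18.5 CPM in GFP− and 51.1, 50.9, 32.4, 34.6 and 30.0 CPM in GFP+ libraries. It was higher in 5 of 5 mice, by 0.65 ± 0.19 on the log2 scale (edgeR adjusted p = 0.159). Psmc2 was lowest, at 37.7, 40.0, 24.9, 22.3 and 25.3 CPM in GFP− and 34.5, 31.3, 25.9, 35.6 and 22.5 CPM in GFP+ libraries. Its log2 fold change was 0.02 ± 0.22, with 2 of 5 mice higher.

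**Figure D2:**
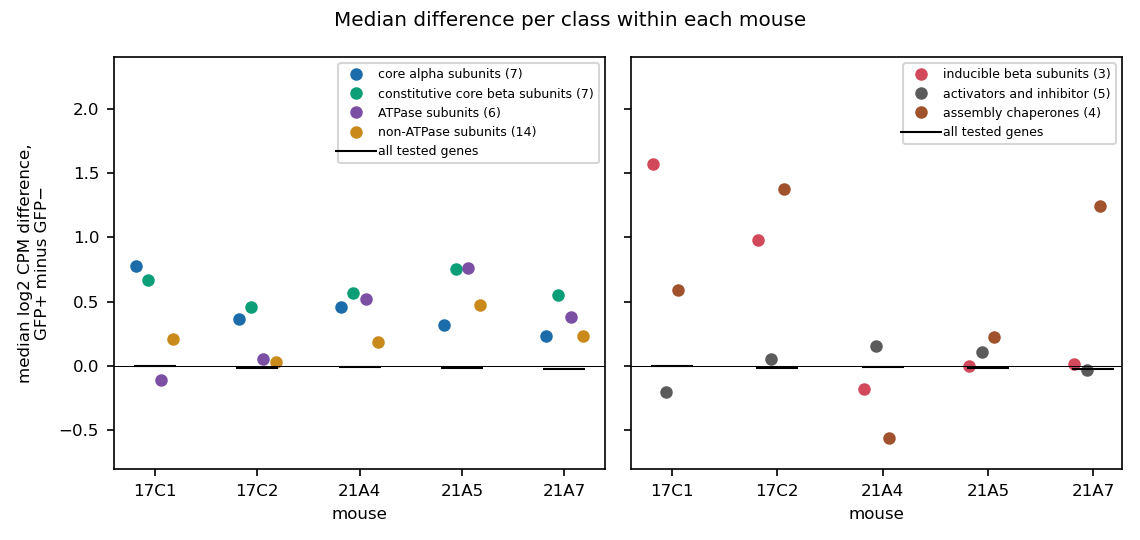
Median log2 CPM difference between the GFP+ and GFP− library of each mouse (y axis) for the tested genes of each class, with the number of genes in parentheses, and for all tested genes (black bars). The constitutive beta and alpha medians lie above 0 in all 5 mice, and the inducible beta median is 1.57 and 0.98 in the 17C mice and between -0.18 and 0.01 in the 21A mice.

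The non-ATPase subunits ranged more widely than the ATPases. Their median log2 fold change was 0.22, with 12 of 14 above 0, 4 at an unadjusted p below 0.05 and 4 higher in 5 of 5 mice. Psmd13, a lid subunit and the highest member by fold change, was at 28.7, 29.3, 15.2, 14.3 and 14.9 CPM in GFP− and 53.4, 39.0, 27.6, 34.5 and 34.2 CPM in GFP+ libraries. Each mouse was higher, and the log2 fold change was 0.93 ± 0.21 (edgeR adjusted p = 0.0966). Psmd8, another lid subunit, was at 34.5, 29.5, 24.8, 29.2 and 26.2 CPM in GFP− and 59.6, 49.2, 48.1, 50.1 and 46.0 CPM in GFP+ libraries. Psmd8 was the member whose GFP+ libraries all exceeded all GFP− libraries (1 of 46, against 1.54% of all tested genes), and it differed by 0.82 ± 0.19 on the log2 scale (edgeR adjusted p = 0.0969).

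Psmd14, the deubiquitinase of the lid, had a log2 fold change of 0.74 ± 0.26 (edgeR adjusted p = 0.229), from 7.50 to 16.5 CPM in GFP− and from 13.2 to 42.2 CPM in GFP+ libraries. At the other end, Psmd9, an assembly factor of the 19S base, was at 6.94, 8.19, 3.68, 4.18 and 4.72 CPM in GFP− and 3.70, 8.67, 4.12, 5.46 and 2.99 CPM in GFP+ libraries. Its log2 fold change was -0.18 ± 0.33, with 3 of 5 mice higher, so no common direction was seen. Psmd1 and Psmd2, scaffold subunits of the base, were at -0.06 ± 0.23 and 0.05 ± 0.22.

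The makeup of the proteasome reads does not depend on library scaling. Constitutive beta genes took 17.01%, 17.1%, 13.3%, 13.4% and 13.6% of the reads on the 48 genes in GFP− libraries and 21.1%, 21.2%, 14.3%, 14.9% and 14.3% in GFP+ libraries. Their share was higher in GFP+ cells in 5 of 5 mice, 14.9 ± 2.0% against 17.2 ± 3.6% (SD, n = 5). The 19S genes took 52.4 ± 2.8% in GFP− and 50.5 ± 3.9% in GFP+ libraries, and their share was lower in each of the 5 mice, with the base chaperones or without them (51.0 ± 2.4% against 49.2 ± 3.9%). The alpha share was higher in 3 of 5 mice (13.5 ± 1.0% against 14.1 ± 3.1%). Alpha and constitutive beta genes together were also higher in 3 of 5 mice (28.4 ± 2.9% against 31.3 ± 6.6%). The 17C mice had the higher beta share in both groups.

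**Figure D3:**
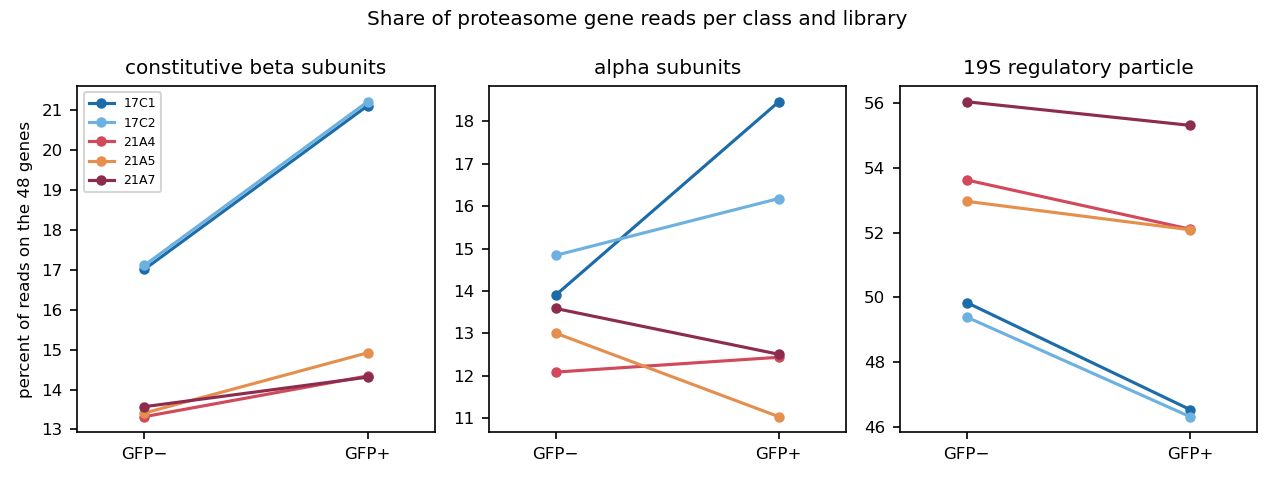
Percent of reads on the 48 proteasome genes that fell on the constitutive beta, alpha and 19S genes (y axes, which do not start at 0) in GFP− and GFP+ libraries, with lines joining the libraries of a mouse. The beta share is higher in the GFP+ library in all 5 mice, the 19S share is lower in all 5, and the alpha share is lower in 21A5 and 21A7.

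Both groups differed between the 17C and 21A mice. In GFP− cells, all 14 constitutive core genes were higher in both 17C libraries than in all 3 21A libraries, as were 36 of all 46 members and 31% of all tested genes. In GFP+ cells the same held for 13 of 14 core genes and 30 of 46 members, against 18% of all tested genes. The inducible genes went the other way in GFP− cells, where 2 of 3 were lower in both 17C libraries than in all 21A libraries (33.6% of all tested genes). The fibroblast sums given above divide the GFP− libraries in the same way, and so do the macrophage and endothelial sums, all lower in the 17C mice. The cardiomyocyte sum and the mitochondrial share divide them too, and both were higher in the 17C mice. The part of any of these in the levels was not tested.

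Among the inducible subunits, Psmb8 and Psmb9 had no common direction between mice, and the weight of the class among the catalytic transcripts differed widely. Psmb8, the inducible counterpart of Psmb5, was at 1.56, 0.551, 5.55, 5.07 and 10.99 CPM in GFP− and 4.79, 5.90, 3.81, 1.84 and 11.1 CPM in GFP+ libraries, on 7 to 608 counts. It was higher in GFP+ cells in 3 mice, both 17C mice among them, and its log2 fold change over all mice was 0.45 ± 0.68 (edgeR adjusted p = 0.808). Psmb9, the counterpart of Psmb6, was at 0, 1.10, 1.45, 1.88 and 3.62 CPM in GFP− and 0.761, 1.24, 1.27, 1.88 and 0.213 CPM in GFP+ libraries. It had few counts in some libraries, with 0 counts in GFP− cells of 17C1, where 3 counts equal 0.123 CPM, and 2 counts in GFP+ cells of 21A7. Its log2 fold change was -0.06 ± 1.22. Within mice the log2 difference ran from -3.65 in 21A7 to 3.37 in 17C1, with 3 of 5 mice higher. No common direction was therefore seen, and the low counts limit these values.

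Psmb10, the counterpart of Psmb7, was steadier. It was at 6.34, 6.93, 7.12, 7.26 and 6.87 CPM in GFP− and 6.96, 13.7, 10.2, 7.85 and 8.75 CPM in GFP+ libraries. All 5 mice were higher in GFP+ cells, with a log2 fold change of 0.42 ± 0.26 (edgeR adjusted p = 0.489). In GFP− cells of 21A7, the 608 counts of Psmb8 exceeded the 509 counts of Psmb5. Per kilobase of exon, mean levels in GFP− cells were 2.91 CPM for Psmb8, 1.19 for Psmb9 and 5.27 for Psmb10, against 22.5 for Psmb5, 50.1 for Psmb6 and 22.04 for Psmb7.

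**Figure D4:**
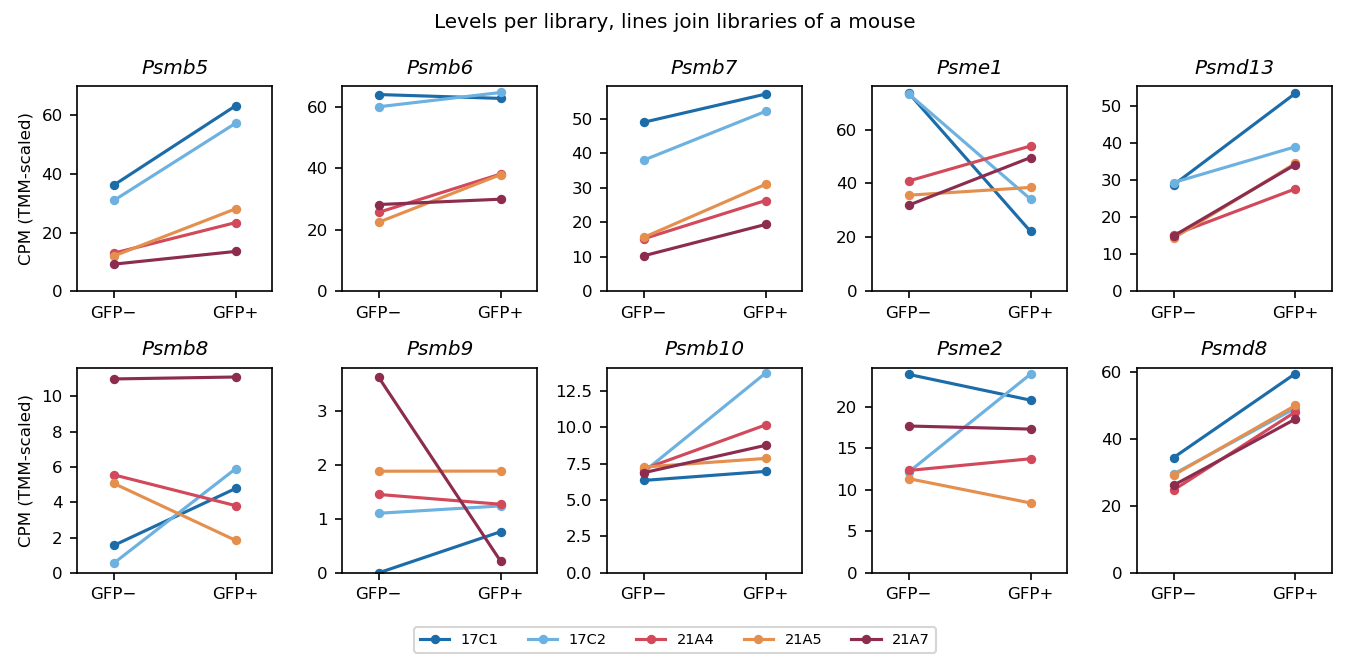
CPM (y axes, each from 0) of constitutive catalytic genes (top row: Psmb5, Psmb6, Psmb7), their inducible counterparts (bottom row: Psmb8, Psmb9, Psmb10), the 11S genes Psme1 and Psme2, and the 19S genes Psmd13 and Psmd8, with lines joining the libraries of a mouse. Psmb5, Psmb7, Psmb10, Psmd13 and Psmd8 slope upward in 5 of 5 mice. Psme1 goes from 73.6 to 22.2 and from 73.3 to 34.2 CPM in the 17C mice.

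Inducible to constitutive ratios, which do not depend on library scaling, had changes of opposite sign between mice. The log2 ratio of Psmb8 to Psmb5 changed from GFP− to GFP+ cells by 0.79, 2.36, -1.38, -2.66 and -0.54 in the 5 mice. It was higher in both 17C mice and lower in all 3 21A mice. For Psmb9 to Psmb6 the changes were 3.89, 0.07, -0.70, -0.74 and -3.60, with the same division. For Psmb10 to Psmb7 they were -0.08, 0.52, -0.27, -0.87 and -0.56. Mean changes were -0.28 ± 1.94, -0.21 ± 2.69 and -0.25 ± 0.53 (SD, n = 5). Exact two-sided sign-flip tests over mice gave p = 0.75, 0.75 and 0.312, each 0.75 after Benjamini-Hochberg adjustment over the 3 ratios, where the smallest p that 5 mice allow is 0.0625.

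Pooled over the 6 catalytic genes, inducible subunits took 5.03% of reads (95% Wilson interval 4.26 to 5.94%), 6.25% (5.20 to 7.48%), 20.8% (19.5 to 22.2%), 22.1% (20.7 to 23.7%) and 31.1% (29.7 to 32.6%) in GFP− libraries. In GFP+ libraries they took 6.40% (5.36 to 7.62%), 10.7% (9.44 to 12.1%), 14.8% (13.0 to 16.8%), 10.7% (9.48 to 12.0%) and 24.2% (21.3 to 27.4%). The share was higher in GFP+ cells in both 17C mice and lower in all 3 21A mice, and the group means were 17.1 ± 11.2% and 13.4 ± 6.8% (SD, n = 5). These intervals treat each read as independent and leave out variation between mice. PCR copies were not marked, so the intervals can be too narrow even for counting error.

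Among the lists of other cell types, only the fibroblast and dendritic cell sums went the same way as that share in all 5 mice. The dendritic sum (6 genes) was 2.87 to 12.3 CPM in GFP− and 5.14 to 7.79 CPM in GFP+ libraries. It was mostly Zbtb46, with means of 6.015 CPM in GFP− and 5.416 CPM in GFP+ libraries. Xcr1 and Cd209a had 0 counts in every library, Flt3 at most 4 and Siglech at most 2. That sum therefore does not show that dendritic cells were present. Macrophage and monocyte markers (8 genes) summed to 26.2, 20.6, 260, 603 and 627 CPM in GFP− libraries and to 20.4 to 298 CPM in GFP+ libraries, with 1 of 5 mice higher. In 17C2, where the share was higher in GFP+ cells, the macrophage, endothelial and mural sums were lower. Fibroblast markers were higher in GFP+ cells in 2 of 5 mice, both 17C mice, and endothelial markers (7 genes, 60.1 to 510 CPM in GFP− and 35.7 to 261 CPM in GFP+ libraries) in 1 of 5. Lymphocyte markers (7 genes) summed to at most 0.398 CPM in any library, with 3 of the 7 at 0 in all. With the non-myocyte marker score as a covariate, the log2 fold change relative to the median of all genes was 1.68 for Psmb8 (edgeR adjusted p = 0.208) and 0.43 for Psmb10 (adjusted p = 0.528). This fit cannot show what part these cells had in the inducible reads, because the score came from the same libraries. That part was not tested.

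**Figure D5:**
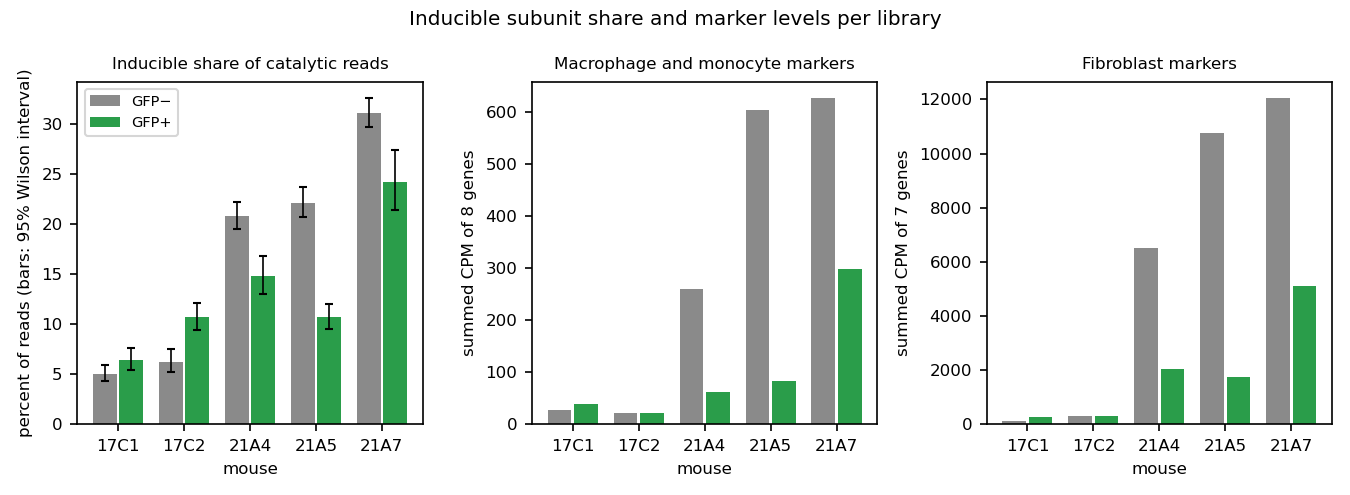
Percent of reads on the 6 catalytic genes that fell on Psmb8, Psmb9 and Psmb10 (left, bars are 95% Wilson intervals), and summed CPM of macrophage and monocyte (middle) and fibroblast markers (right), by mouse for GFP− (grey) and GFP+ (green) libraries. In the 21A mice all 3 measures are lower in GFP+ cells, and in the 17C mice the marker sums are at most 315 CPM.

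The activator genes split by mouse. Psme1, a subunit of the interferon-inducible 11S activator, was at 73.6, 73.3, 40.9, 35.6 and 31.9 CPM in GFP− and 22.2, 34.2, 53.9, 38.5 and 49.6 CPM in GFP+ libraries. It was lower in GFP+ cells in both 17C mice and higher in all 3 21A mice, and the log2 fold change over all 5 was -0.32 ± 0.38 (edgeR adjusted p = 0.748). Cardiomyocyte markers divided the mice in the same way, from 31370, 35590, 26300, 15450 and 3294 CPM in GFP− to 12890, 19000, 31190, 29280 and 8852 CPM in GFP+ libraries. The mitochondrial share did so too, from 62.0%, 58.1%, 35.7%, 26.5% and 9.20% to 49.3%, 47.7%, 73.1%, 35.7% and 91.2%. The part of either in the values of Psme1 was not tested. Psme2, its partner subunit, was at 23.9, 12.1, 12.3, 11.3 and 17.7 CPM in GFP− and 20.8, 23.9, 13.7, 8.40 and 17.3 CPM in GFP+ libraries, with a log2 fold change of 0.09 ± 0.25 and 2 of 5 mice higher. Reads of Psme2 are uncertain because its near copy Psme2b held 1 to 48 counts per library. Psme4, the nuclear activator PA200, was at 179, 160, 101, 93.2 and 36.4 CPM in GFP− and 154, 152, 164, 222 and 79.2 CPM in GFP+ libraries. It was lower in both 17C mice and higher in all 3 21A mice (0.56 ± 0.30 over all; edgeR adjusted p = 0.423). Psme3, the activator of the nuclear core, was at -0.06 ± 0.21, and Psmf1, an inhibitor of the core, at 0.06 ± 0.55.

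Fits within each series of mice, with 2 and 3 pairs, made calls that the joint fit did not. In the 17C mice 3 members were called, Psmb4 (0.87 ± 0.27, edgeR adjusted p = 0.0341) and Psmb5 (0.86 ± 0.27, 0.0351) higher and Psme1 (-1.40 ± 0.28, 0.0014) lower, with 13.6% of all tested genes called (6.08% higher and 7.52% lower). In the 21A mice 4 members were called higher, Psmd13 (1.13 ± 0.22, edgeR adjusted p = 0.0179), Psmd8 (0.87 ± 0.20, 0.0344), Psme4 (1.04 ± 0.24, 0.035) and Psmb7 (0.92 ± 0.22, 0.037), with 6.72% of all tested genes called (2.67% higher and 4.05% lower). The test of the difference between the series called 2 of 46 members, Psme1 and Psmb8, against 7.62% of all tested genes (3.57% more positive in the 21A mice and 4.04% more negative). Psme1 was more positive in the 21A mice by 1.80 ± 0.35 on the log2 scale (edgeR adjusted p = 0.0249) and for Psmb8 the difference was -3.08 ± 0.81 (adjusted p = 0.0491). For Psmb4, Psmb5, Psmb7, Psmd8 and Psmd13 that difference had adjusted p of 0.29 to 0.963, and for Psme4 it was 0.0674.

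The assembly chaperones, which help to build the alpha ring of the core, had low levels, and Psmg3 was near the low end of detection. Their means were 0.5924 (Psmg3) to 3.535 CPM (Psmg2) in GFP− and 1.353 (Psmg3) to 5.255 CPM (Psmg2) in GFP+ libraries. Psmg1 had a log2 fold change of 0.73 ± 0.36, with 4 of 5 mice higher, and Psmg2 one of 0.69 ± 0.41, with 5 of 5 higher. Psmg3 had the highest value of the class, 0.83 ± 1.42, with 10, 0, 38, 52 and 27 counts in GFP− and 13, 32, 0, 20 and 13 counts in GFP+ libraries. Psmg4 had the lowest, 0.27 ± 0.54, with 61, 33, 99, 103 and 144 counts in GFP− and 101, 71, 10, 52 and 16 counts in GFP+ libraries. Pomp, the maturation factor of the core, was at 18.0 ± 6.6 CPM in GFP− and 26.3 ± 9.9 CPM in GFP+ libraries (SD, n = 5), higher in 5 of 5 mice, with a log2 fold change of 0.52 ± 0.21 (edgeR adjusted p = 0.29).

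Beyond the subunits, the listed pathway genes included no call in the joint edgeR fit. Of 9 tested partners of the proteasome, 4 had an unadjusted p below 0.05 and were higher in 5 of 5 mice. They were Pomp, Sem1, a small 19S subunit (0.52 ± 0.22), Usp14, a deubiquitinase bound to the 19S base (0.57 ± 0.23), and Ube3c, a ubiquitin ligase bound to the proteasome (0.45 ± 0.19), and the list's median was 0.45. Of 14 genes of ubiquitin and of delivery to the proteasome, 2 were higher at an unadjusted p below 0.05 and the median was 0.21. Sqstm1, the autophagy receptor p62, had a log2 fold change of 1.03 ± 0.27 (edgeR adjusted p = 0.138) and Uba1, the ubiquitin-activating enzyme, one of 0.65 ± 0.22 (0.211), each with 5 of 5 mice higher.

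The genes that regulate proteasome transcription had no common direction, and the activity of their products was not measured. Of 10 tested, 1 was higher and 2 lower at an unadjusted p below 0.05, with a median of -0.15. Nfe2l1 was at 159 ± 45 CPM in GFP− and 133 ± 50 CPM in GFP+ libraries, with a log2 fold change of -0.27 ± 0.28 and 1 of 5 mice higher. Ddi2, the protease that activates the Nfe2l1 product, had a log2 fold change of -0.57 ± 0.20 (edgeR adjusted p = 0.239) and was lower in 5 of 5 mice. Within the 17C mice, 3 of the 10 were called lower, Nfe2l1 (-0.87 ± 0.26, edgeR adjusted p = 0.0307), Foxo1 (-2.70 ± 0.70, 0.0112) and Foxo3 (-1.45 ± 0.30, 0.00195), where 7.52% of all tested genes were. In the 21A mice Nfe2l1 was at 0.14 ± 0.25, and 1 of the 10, Mafk, was called higher (2.67% of all tested genes). Over all mice Mafk, a small Maf partner, was at 0.70 ± 0.26 and Foxo3, a transcription factor, at -0.73 ± 0.29. Mafk and Mafg (0.52 ± 0.23) were higher in 5 of 5 mice, and Foxo1 (-1.11 ± 0.52), like Ddi2, was lower in 5 of 5. Ngly1 was higher in 4 of 5 mice and Hsf1 in 1 of 5. Of 14 interferon regulators and class I presentation genes, 0 were higher and 1 lower at an unadjusted p below 0.05, with a median of -0.18. Within the 17C mice, 3 of them were called higher, the class I genes H2-K1 (1.21 ± 0.28, edgeR adjusted p = 0.00542), H2-D1 and B2m, where 6.08% of all tested genes were. Within the 21A mice 1 was called lower, the interferon-gamma receptor gene Ifngr1 (-1.02 ± 0.25, edgeR adjusted p = 0.0433), where 4.05% of all tested genes were. These 14 genes summed to 277.6, 237.1, 487.5, 606.3 and 809.1 CPM in GFP− and 289.8, 299.9, 405.5, 324.4 and 734.4 CPM in GFP+ libraries. Their sum went the same way as the inducible share in each mouse, and a link between them was not tested.

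Promoters were read to show where known response elements lie in genes described above. RefSeq promoters, from 250 bases before to 50 bases after the start, were matched for 40 of 48 members (43 promoters), on the earlier build GRCm38.p6 rather than the counts' GRCm39. The antioxidant response element, searched as TGACNNNGC on both strands, was in 6 of 43 (14%) and in 12.4% of all 32851 promoters of that length. The interferon-stimulated element, searched on both strands as GAAA and GAAA with any 2 bases between, was in 5 of 43 (11.6%) and in 3.44% of all, and the CCAAT box, searched as CCAAT, in 14 of 43 (32.6%) and in 37.4% of all. The antioxidant element lay in the promoters of Psmb5, Psmb6, Psmc6, Psmd9, Psmd12 and Psme4, so both the highest constitutive beta gene and the lowest Psmd gene by fold change held it. The interferon element lay in those of Psmb3, Psmd4, Psmd9, Psme1 and Psmg4, and in none of the inducible Psmb8, Psmb9 and Psmb10. Psmd13, the highest member by fold change, held no match to any of the 3 motifs. Capitals mark the match in the lines below, and a match is a run of letters, not a shown binding site. They give Psmb5 at chr14:54617946-54618245 (minus strand), Psmb6 at chr11:70525107-70525406 (plus), Psmd13 at chr7:140882144-140882443 (plus) and Psme1 at chr14:55578244-55578543 (plus).
Psmb5: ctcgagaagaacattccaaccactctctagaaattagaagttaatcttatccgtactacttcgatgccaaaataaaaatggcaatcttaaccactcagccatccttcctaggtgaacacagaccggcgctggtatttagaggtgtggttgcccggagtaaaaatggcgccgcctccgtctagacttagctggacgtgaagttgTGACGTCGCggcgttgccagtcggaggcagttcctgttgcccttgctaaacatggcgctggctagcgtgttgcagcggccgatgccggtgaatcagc
Psmb6: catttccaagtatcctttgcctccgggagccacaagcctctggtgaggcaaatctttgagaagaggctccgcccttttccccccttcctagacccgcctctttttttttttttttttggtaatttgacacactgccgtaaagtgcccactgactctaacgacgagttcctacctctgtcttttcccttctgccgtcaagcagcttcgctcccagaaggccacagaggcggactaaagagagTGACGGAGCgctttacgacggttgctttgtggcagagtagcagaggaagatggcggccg
Psmd13: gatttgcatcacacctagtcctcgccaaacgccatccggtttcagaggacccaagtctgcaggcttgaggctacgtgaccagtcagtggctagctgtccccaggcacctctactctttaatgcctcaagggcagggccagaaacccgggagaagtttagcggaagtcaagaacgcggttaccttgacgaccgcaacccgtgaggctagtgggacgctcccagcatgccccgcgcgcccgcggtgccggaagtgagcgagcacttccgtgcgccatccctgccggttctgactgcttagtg
Psme1: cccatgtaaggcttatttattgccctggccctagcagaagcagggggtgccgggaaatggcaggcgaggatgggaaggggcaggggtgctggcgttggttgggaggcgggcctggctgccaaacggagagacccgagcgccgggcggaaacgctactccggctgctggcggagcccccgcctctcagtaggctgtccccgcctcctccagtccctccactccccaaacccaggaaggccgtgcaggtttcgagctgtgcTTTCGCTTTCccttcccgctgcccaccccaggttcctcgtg

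Annotation overlap made some values uncertain, and the libraries did not mark strand. Exons of 12 of the 48 members overlapped another gene in the GRCm38 annotation, 5 of them over more than 10% of their length. These were Psmb7 with Nek6 (34.9%), Psmg3 with Gm26938 (26.8%), Psmb9 with Tap1 (15.7%), Psmb5 with Mir686 (12.1%) and Psmb8 with Gm20496 (11.4%). The other gene lay on the same strand for Psmg3 and Psmb5 and on the opposite strand for Psmb7, Psmb8 and Psmb9. The pseudogenes of Psma5, Psmb5, Psmb6 and Psmb7 in the table held 0 to 6 counts per library.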

How the data were processed

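RNA for the 10 libraries was prepared, per the labels' protocols, with RNeasy Plus Micro, SMARTer Ultra Low v4 and Nextera XT, a protocol without strand marking or molecular identifiers. The deposited values are raw whole-number counts per gene in 1 table. Tools named by the submitters' processing notes are featureCounts, Subread 2.0.1, STAR 2.7.9a and fastp 0.23.1, with build GRCm39. For the annotation release, strand setting and reads with several matches, the sources used here give nothing.

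Counts were tested with edgeR 4.0.16 (R 4.3.3): TMM factors, filterByExpr, quasi-likelihood F-test with mouse as a block, and Benjamini-Hochberg adjustment over 12115 tested genes at a threshold of 0.05. SE is the size of the fold change (log2) over the root of F. Log2 CPM used a prior count of 2, and ratios a pseudocount of 1. Pairing came from the animal identifiers in the titles; deviations of the 2 libraries of a mouse from their group means correlated at 0.0741 to 0.637 over genes. No library pair held identical values. Alternatives used DESeq2 1.42.0, limma 3.58.1, other scalings, filters, a marker covariate and subsets of mice. Scripts were tested on simulated data. Exon length and overlap came from GENCODE basic gene models of GRCm38.

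Members and gene lists were chosen with earlier results of these data known. Named with values in every library were Psmb5 to Psmb10, Psme1, Psme2 and the tested members with the highest and lowest paired fold change in each class. The listed partner Paaf1 was not analysed here.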

Additional observations from a re-analysis of the deposited data

Results flagged for a closer look

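The change of Psme1, an 11S activator gene, differed between the mice of the 17C and 21A identifiers by 1.795 on the log2 scale (21A minus 17C, SE 0.3481, edgeR adjusted p = 0.0249). It was lower in GFP+ cells in 2 of 2 17C mice and higher in 3 of 3 21A mice. The adjusted p was 0.136 without 17C1, 0.0548 without 21A4 and 0.0904 without 21A5, and with library size alone the difference was -0.3843 (adjusted p = 0.841). Among the 46 tested members, the test between series called only Psme1 and Psmb8, and it called 7.62% of all tested genes.

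The change of Psmb8, an inducible catalytic subunit gene, differed by -3.077 (SE 0.8148, edgeR adjusted p = 0.0491). Without any 1 of the 5 mice its adjusted p was 0.0737 to 0.143, and with library size alone 0.0412. What distinguishes the 2 identifier series beyond the wording of their titles was not given in the sources used here. A library or mouse far from the others was looked for by Dixon's test (critical value 0.71) in 48 sets of 5 values. The sets were levels of the 18 members named by rule in each group, ratio changes, class medians by mouse and inducible shares. Of these sets 0 were flagged, and with 5 values the test can miss an outlier. Marker sums and mitochondrial shares, the latter 9.195% in GFP− and 91.21% in GFP+ cells of 21A7, were not among them.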

How the results depend on the processing

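In edgeR fits of all 5 mice 0 members were called with TMM, DESeq2 size factors, library size alone, sarcomere scaling, either removal of mitochondrial genes, either filter or the marker covariate, and 0 without any 1 mouse. Without the pairing (no replicate block) the count was 0 for members and 10 for all genes, against 104 with it, and no other result changed its call. The count was 6 with DESeq2, 3 with limma voom, 3 in the 17C mice alone and 4 in the 21A mice alone. All genes called ranged from 0 (without 17C2, or scaled to sarcomere genes; 1492 and 1013 at an unadjusted edgeR p below 0.05) to 1510 (17C mice alone). Without 21A4, 21A5, 21A7 and 17C1 they were 1, 6, 71 and 173. Assembly chaperones had no value at a filter of 5 CPM in 5 libraries, which left none of them.

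Class medians relative to that of all genes moved as follows. Without a filter, constitutive beta genes were at 0.821, non-ATPases at 0.4191 and activators at 0.2647. With the marker covariate, ATPases were at 0.01073. In the 17C mice alone, constitutive beta genes were at 0.5004, inducible at 2.026 and ATPases at -0.06307. In the 21A mice alone, inducible genes were at -0.5644 and non-ATPases at 0.4188. Leaving out 1 mouse gave activators -0.05193 to 0.1604 and inducible genes -0.07437 to 0.6663, the latter lowest without 17C2. The alpha median stayed between 0.411 and 0.6075 under all 18 alternatives.

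Named members changed sign relative to that median, with the cause not tested. Psmb9 was at 0.02308 with DESeq2, 0.3336 with library size alone, 0.1547 with no filter, 1.186 with the covariate, 2.026 in 17C mice and 0.02379 without 21A4. Psmb8 was at -0.06663 with limma voom and -0.5644 in 21A mice. Psmd9 was at 0.0236 with no filter, 0.05986 in 21A mice and 0.04867 without 17C1. With the covariate, Psmb6 was at -0.002842, Psmb2 at -0.1085 and Psmc2 at -0.2548. Psmc2 was at -0.2204 in 17C mice and -0.133 without 21A5, and Psme4 at -0.1229 in 17C mice. Psme1 was at 0.4637 in 21A mice and 0.06926 without 17C1. Psme2 was at -0.01937 in 21A mice and -0.06797 without 17C2. Psmg3 was at -0.4941 in 21A mice and -0.00091 without 17C2, and Psmg4 at -0.4873 in 21A mice and -0.04053 without 17C1. Without 1 mouse, values ranged from -0.07437 to 0.9854 for Psmb8, -0.708 to 0.7517 for Psmb9, -0.5309 to 0.06926 for Psme1, -0.06797 to 0.234 for Psme2, -0.133 to 0.1684 for Psmc2, -0.3092 to 0.04867 for Psmd9, -0.00091 to 1.725 for Psmg3 and -0.04053 to 0.644 for Psmg4. The mean change of Psmb8/Psmb5 was -0.9467 (without 17C2) to 0.3098 (without 21A5), and that of Psmb9/Psmb6 -1.241 (without 17C1) to 0.6301 (without 21A7). The test between series called 1 member with library size alone and 0 to 1 without 1 mouse, an alternative added after seeing the data. Counts of 0 to 52 limit Psmg3 and of 0 to 200 limit Psmb9.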
